A study of Homo sapiens with 33 samples.

Results

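Nodal and Activin are ligands of the TGF-beta family that bind type I and type II receptor kinases. The receptors phosphorylate SMAD2 and SMAD3, which enter the nucleus with SMAD4 and act on genes together with partners such as FOXH1. In human ESCs this signal supports the undifferentiated state, in the embryo it patterns mesoderm and endoderm, and its own inhibitors LEFTY1 and LEFTY2 are among its targets. Described here are 7 genes of the pathway, chosen by name: the ligand genes *NODAL*, *GDF3* and *INHBA*, the co-receptor gene *TDGF1*, the inhibitor genes *LEFTY1* and *LEFTY2*, and *FOXH1*. All 7 were found among the 35805 genes of the RNA-seq table, each listed once, and their names cover 21 of the 153956 named start-site windows of the ChIP-seq table.

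The cells were H9 human ESCs, an established line, sorted for the surface marker SSEA4 and kept on mouse feeder cells. RNA-seq held 3 libraries for each of 4 genotypes. Wild-type cells (*EZH2*+/+, label WT) are unedited, and heterozygous cells (*EZH2*-/+, Het) carry a Cas9-induced deletion on 1 allele of *EZH2*, which encodes the enzyme of PRC2 that methylates H3K27. Null cells (*EZH2*-/-, Null) carry disruptive deletions on both alleles and descend from a heterozygous line that had received a doxycycline-inducible *EZH2* transgene, and restored cells (*EZH2*-/-+*EZH2*, Null+EZH2) are such cells with that transgene switched on by doxycycline. The edited lines were expanded from single colonies, and the labels do not tie libraries to separate clones, so a change shared by the edited lines cannot be told apart from a feature of their common lineage, and p-values measure only the spread between these libraries. ChIP-seq gave 1 averaged value per genotype for H3K27me3, H3K4me3, H3K27ac, H3K4me1 and input, and 1 EZH2 value in wild-type cells, in 5 kb windows around start sites.

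Reads on genes ranged from 16587860 to 36589089 over the 12 RNA libraries. *EZH2* RNA ran from 59.5 to 68.6 RPM (reads scaled to 1000000 per library) in wild-type, 45.7 to 55.4 in heterozygous, 8.65 to 11.5 in null and 256 to 385 in restored ESCs, in the order of the labels. The summed RPM of 8 markers of undifferentiated ESCs, *POU5F1*, *NANOG* and *SOX2* among them, was 2369 or more in every library. *SOX2* averaged 224 RPM in wild-type and 109 RPM in null ESCs, a fall that the sum does not show. Changes are differences of log2(RPM + 0.1) tested with limma over 20608 genes, on which the folds of scarce transcripts come out too small, and a change is called where its Benjamini-Hochberg adjusted p was under 0.05. In null relative to wild-type ESCs 2593 genes rose and 3870 fell, and 3381 rose and 2816 fell once libraries were rescaled by their median ratio, so the split of all genes depends on scaling. The same rescaling took the split from 701 and 1422 to 1031 and 872 in restored and from 37 and 199 to 57 and 121 in heterozygous relative to wild-type ESCs. Since 3 of the 4 comparisons share the wild-type libraries, their values are given side by side.

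Relative to wild-type ESCs, *NODAL*, *GDF3*, *TDGF1*, *LEFTY1*, *LEFTY2* and *FOXH1* rose in null ESCs, 6 of 7 members against 12.6% of all genes tested (7 of 7 against 17.3% with the replicate number as a block in the fit). *LEFTY2* was 39.0-fold, *LEFTY1* 27.2-fold, *NODAL* 25.0-fold, *GDF3* 8.60-fold, *TDGF1* 4.35-fold and *FOXH1* 1.64-fold higher on the log2(RPM + 0.1) scale. The median log2 change of the members was 3.10, and that of all genes tested was -0.13. For the same 6 genes every null library lay above every wild-type library, as it did for 20.6% of all genes tested.

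**Figure D1:**
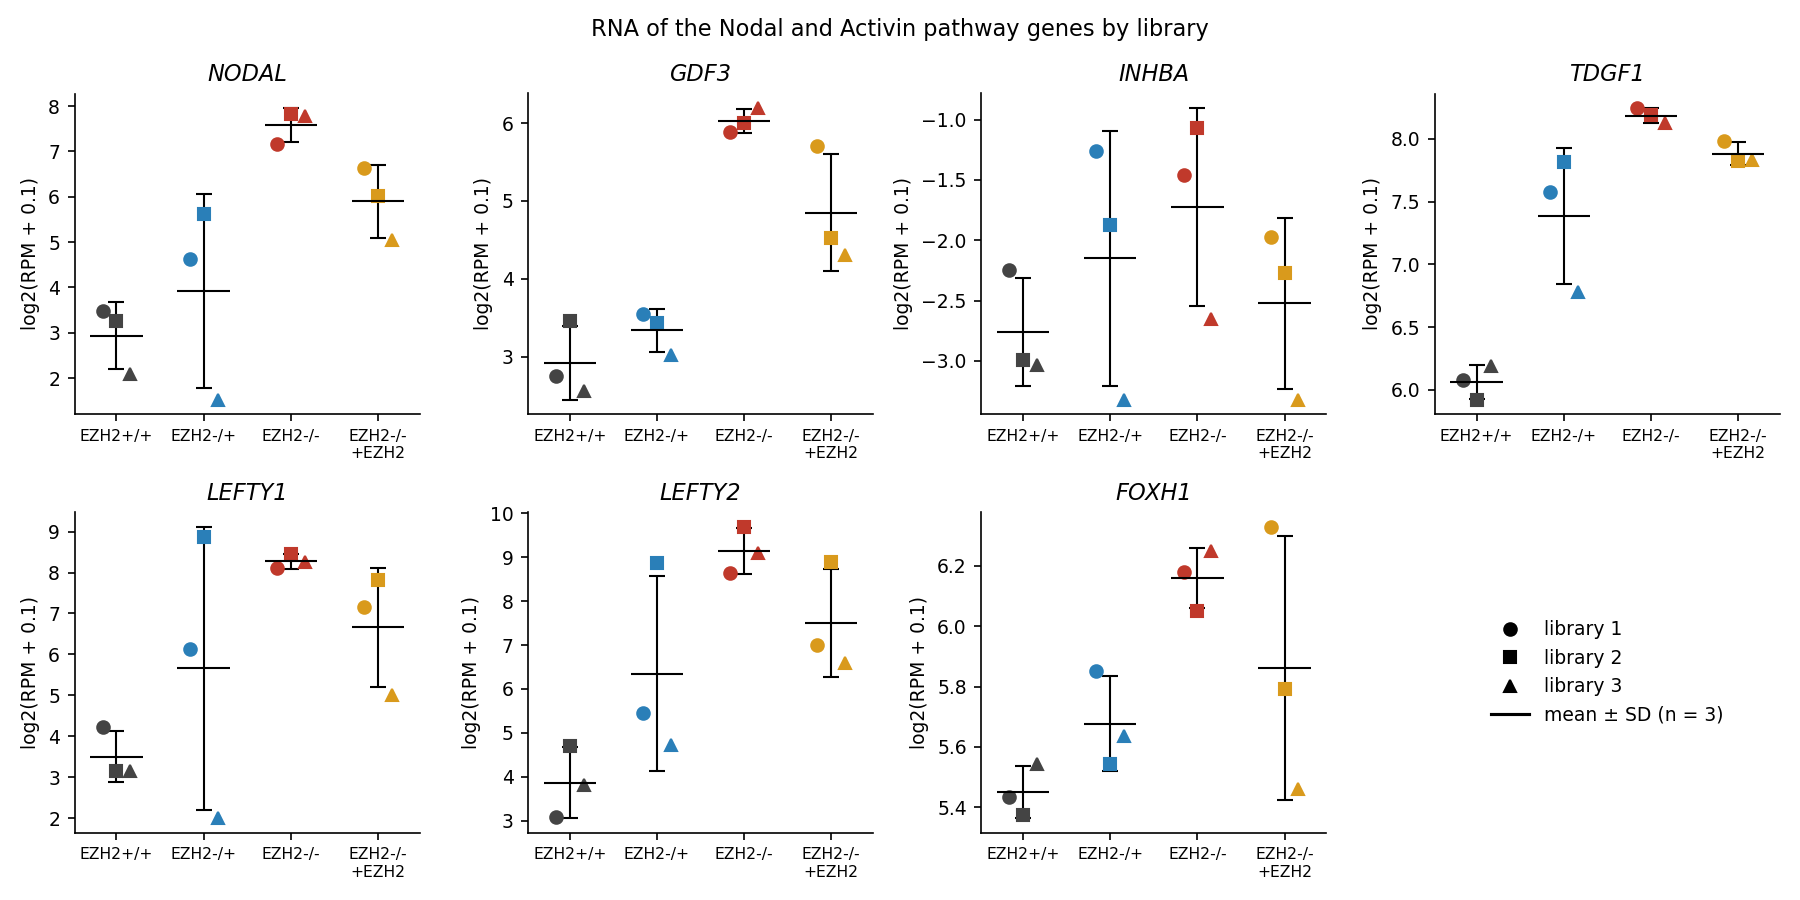
RNA of the 7 genes in each library, as log2(RPM + 0.1) on the y axis, by genotype on the x axis, with the mean and SD of 3 libraries. The null libraries sit above all wild-type libraries for every gene but *INHBA*, while heterozygous libraries of *NODAL*, *LEFTY1* and *LEFTY2* are spread widely.

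*NODAL* encodes the ligand itself and lies on chromosome 10 of GRCh38 from 70432315 to 70447951, on the minus strand. It was measured at 11.0, 9.46 and 4.15 RPM in wild-type, 24.6, 49.0 and 2.78 in heterozygous, 142, 226 and 218 in null, and 99.2, 64.4 and 33.0 in restored ESCs, libraries 1 to 3 in each. The null libraries were the highest, and neither null nor restored libraries overlapped wild-type, whereas heterozygous library 3 lay below all wild-type libraries and libraries 1 and 2 lay above them. In bulk RNA, more cells that express a gene and more RNA per cell cannot be told apart. The log2 fold change of *NODAL* in null relative to wild-type ESCs was 4.64 (SE 0.80, adjusted p = 0.0011 from limma). RP11-104F15.9, listed on the other strand inside *NODAL*, averaged 83.5 RPM in null and 3.85 RPM in wild-type ESCs, and the counting ignored strand, so reads of the pair cannot be assigned.

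*GDF3* encodes a ligand that needs the same co-receptor as Nodal and lies on chromosome 12 from 7689782 to 7695776, on the minus strand. It was at 6.62, 10.9 and 5.79 RPM in wild-type, 11.6, 10.7 and 8.01 in heterozygous, 59.1, 63.7 and 73.0 in null, and 52.2, 22.9 and 19.7 in restored ESCs. The 4 genotypes formed 3 levels here, with heterozygous overlapping wild-type and restored between these and null. Its log2 fold change in null relative to wild-type ESCs was 3.10 (SE 0.33, adjusted p = 6e-05 from limma).

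*INHBA* encodes the subunit of Activin A and lies on chromosome 7 from 41685114 to 41703108, on the minus strand. It was scarce everywhere, with 5, 1 and 1 reads in wild-type, 13, 8 and 0 in heterozygous, 15, 20 and 2 in null, and 6, 4 and 0 in restored ESCs. The groups overlapped, and library 3 had the fewest reads or shared the fewest in each genotype. The fitted difference in null relative to wild-type ESCs was 1.03 (SE 0.57, adjusted p = 0.19 from limma), with an adjusted p of 0.037 with the replicate number as a block in limma. At this depth no fold is given for *INHBA*.

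Promoter sequences of the 3 ligand genes (RefSeq, GRCh38.p14; 250 bases before to 50 after the start, minus strand, 5′ to 3′) are shown because the chromatin marks were counted around starts such as these and because the genes differ in CG content. Capitals mark CG dinucleotides. *NODAL* (chr10:70441632-70441931) holds 11, and *GDF3* (chr12:7695726-7696025) and *INHBA* (chr7:41703041-41703340) hold 1 each, whereas the median of 35116 promoters of this length is 14.
NODAL: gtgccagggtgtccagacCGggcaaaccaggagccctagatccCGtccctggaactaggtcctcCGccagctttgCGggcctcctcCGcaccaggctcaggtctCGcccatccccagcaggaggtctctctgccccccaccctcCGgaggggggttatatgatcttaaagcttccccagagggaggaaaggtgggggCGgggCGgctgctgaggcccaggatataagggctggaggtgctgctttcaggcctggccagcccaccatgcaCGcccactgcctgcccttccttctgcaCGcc
GDF3: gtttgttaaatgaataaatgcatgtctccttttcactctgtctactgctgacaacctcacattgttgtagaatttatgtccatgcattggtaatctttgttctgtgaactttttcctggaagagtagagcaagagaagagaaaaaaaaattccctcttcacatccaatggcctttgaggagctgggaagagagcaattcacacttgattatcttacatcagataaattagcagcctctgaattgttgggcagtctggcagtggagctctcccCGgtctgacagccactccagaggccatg
INHBA: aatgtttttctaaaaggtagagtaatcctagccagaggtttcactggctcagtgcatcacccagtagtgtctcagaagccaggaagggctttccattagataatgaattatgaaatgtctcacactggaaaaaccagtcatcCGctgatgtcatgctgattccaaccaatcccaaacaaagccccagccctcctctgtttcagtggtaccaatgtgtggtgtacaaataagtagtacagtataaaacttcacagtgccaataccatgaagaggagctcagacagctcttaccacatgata
Of all these promoters 11.0% hold at most 1 CG and 46.9% hold at most 11. Neither the FOXH1 core AATCCACA nor the SMAD box GTCTAGAC, on either strand, is in the 3 windows. Among all promoters 0.817% hold the first and 0.202% the second.

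*TDGF1* encodes Cripto, the co-receptor that Nodal and GDF3 need to reach the type I receptor, and lies on chromosome 3 from 46574555 to 46626543, on the plus strand. Its RPM was 67.4, 60.6 and 73.0 in wild-type, 190, 225 and 110 in heterozygous, 303, 291 and 279 in null, and 253, 227 and 228 in restored ESCs. All 9 libraries of edited cells lay above all wild-type libraries, and the null libraries were the highest. The log2 fold change relative to wild-type ESCs was 2.12 (SE 0.21, adjusted p = 4.1e-05 from limma) in null ESCs. The gene has processed pseudogenes and overlaps *LRRC2* on the other strand, which was at 28.4 RPM in null and 6.54 RPM in wild-type ESCs, so reads can be shared with them.

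*LEFTY1* and *LEFTY2* encode secreted inhibitors that block Nodal and its co-receptor. They are neighbours on the minus strand of chromosome 1, *LEFTY1* from 225886282 to 225911382 and *LEFTY2* from 225936598 to 225941489. *LEFTY1* was at 18.5, 8.77 and 8.76 RPM in wild-type, 69.9, 466 and 3.90 in heterozygous, 275, 351 and 305 in null, and 142, 225 and 32.3 in restored ESCs. *LEFTY2* was at 8.37, 25.9 and 14.0 RPM in wild-type, 43.9, 471 and 26.1 in heterozygous, 401, 831 and 551 in null, and 128, 478 and 96.5 in restored ESCs. Both genes were lowest in wild-type apart from heterozygous library 3, where *LEFTY1* lay below every wild-type library and *LEFTY2* just above the highest, and heterozygous library 2 reached the level of null cells or passed it.

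The log2 fold change in null relative to wild-type ESCs was 4.77 for *LEFTY1* (SE 1.24, adjusted p = 0.012 from limma) and 5.29 for *LEFTY2* (SE 0.89, adjusted p = 0.00098 from limma). The *LEFTY1* call was lost with no filter on low values (adjusted p = 0.066 from limma). The genes are close paralogues, and 14.8% of the 100-base stretches of the *LEFTY1* exons also occur in *LEFTY2*. With the reads of both summed, the log2 fold change was 4.99 (adjusted p = 0.0018 from limma). RP4-559A3.7 overlaps *LEFTY1* and RP4-559A3.6 overlaps *LEFTY2* on the same strand, at 217 and 59.0 RPM in null ESCs.

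*FOXH1* encodes the DNA-binding partner of the SMADs and lies on chromosome 8, on the minus strand. It was at 43.1, 41.3 and 46.6 RPM in wild-type, 57.7, 46.5 and 49.7 in heterozygous, 72.5, 66.2 and 75.9 in null, and 80.4, 55.3 and 44.0 in restored ESCs. The null libraries lay above all wild-type and heterozygous libraries, and the restored libraries spanned both levels. Its log2 fold change in null relative to wild-type ESCs was 0.71 (SE 0.19, adjusted p = 0.013 from limma), the smallest of the 6 called. *KIFC2*, which overlaps it on the other strand, averaged 26.6 RPM in null and 21.9 RPM in wild-type ESCs.

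Per kb of exon, the order of the genes differed between genotypes. In wild-type ESCs *TDGF1* was highest at 26.9 RPM per kb (24.3 to 29.3 over libraries), followed by *FOXH1* at 21.7 (20.5 to 23.1), *LEFTY2* at 7.04, *LEFTY1* at 6.35, *GDF3* at 6.29, *NODAL* at 3.93 and *INHBA* at 0.00637. From *LEFTY2* to *NODAL* the ranges over libraries overlapped. In null ESCs *LEFTY2* was highest at 260.1 RPM per kb (176 to 364), ahead of *LEFTY1* at 164 (145 to 186), *TDGF1* at 117 (112 to 122), *NODAL* at 93.8 (68.2 to 109), *GDF3* at 52.8 (47.9 to 59.1), *FOXH1* at 35.5 (32.8 to 37.6) and *INHBA* at 0.0281. Only *LEFTY2* and *LEFTY1* overlapped as neighbours in that order.

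Null ESCs were also set against restored ESCs, the comparison the study drew its changed genes from. All 7 members had higher means in null ESCs, but 0 of 7 passed the test, where 2.63% of all genes tested rose. The count was 1 at an unadjusted p under 0.05 (*GDF3*), where 3460 of 20608 genes had such a p in either direction. It was 0 with limma voom on recovered reads, where 238 of 20608 genes rose, and 1 with the block, where 6.19% of all genes rose. The log2 fold change of *GDF3* was 1.18 (95% interval 0.47 to 1.89, adjusted p = 0.076 from limma), with an adjusted p of 0.032 with the replicate number as a block in limma and 0.013 without restored library 1. That of *NODAL* was 1.68 (interval -0.04 to 3.41, adjusted p = 0.31 from limma), with an adjusted p of 0.039 in a limma fit of only the 6 libraries compared. *LEFTY2*, *LEFTY1* and *TDGF1* had log2 fold changes of 1.65 (interval -0.27 to 3.58), 1.61 (-1.08 to 4.30) and 0.30 (-0.15 to 0.76), and *INHBA* and *FOXH1* were at 0.80 and 0.30. *NODAL*, *GDF3*, *LEFTY1* and *TDGF1* had no overlap between the libraries of these genotypes, 4 of 7 members against 13.5% of all genes tested.

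Relative to wild-type ESCs, *TDGF1*, *GDF3*, *LEFTY2* and *NODAL* rose in restored ESCs, 4 of 7 members against 3.4% of all genes tested (5 with the block, against 6.26%). The log2 fold changes were 1.82 for *TDGF1* (SE 0.21, adjusted p = 0.00043 from limma), 1.93 for *GDF3* (adjusted p = 0.0039), 3.63 for *LEFTY2* (adjusted p = 0.022) and 2.96 for *NODAL* (adjusted p = 0.033). *LEFTY1* had a log2 fold change of 3.15 (adjusted p = 0.13 from limma, 0.038 with the block), and *FOXH1* one of 0.41 (adjusted p = 0.19 from limma, 0.043 without restored library 3). With the reads of *LEFTY1* and *LEFTY2* summed, the log2 fold change was 3.39 (adjusted p = 0.035 from limma). Libraries did not overlap for 5 of 7 members, against 9.77% of all genes tested that were higher without overlap. The calls of *NODAL* and *LEFTY2* did not hold when some single libraries were left out. Those fits also called fewer genes in all, with 328 to 528 higher against 701 in the main fit. *NODAL* lost its call without wild-type library 1, 2 or 3 or restored library 1 or 2, and *LEFTY2* without wild-type library 1 or 3 or restored library 2, with adjusted p up to 0.12 and 0.10 in limma. The count of called members was 2 without wild-type library 1 or 3 or restored library 2.

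In heterozygous ESCs only *TDGF1* rose, with a log2 fold change of 1.32 (SE 0.21, adjusted p = 0.010 from limma). That is 1 of 7 members against 0.18% of all genes tested, and the call was lost without wild-type library 2, with no filter on low values and in a fit of only the 6 libraries compared (adjusted p = 0.070, 0.078 and 0.12 from limma). *LEFTY2* had a log2 fold change of 2.48 (interval 0.56 to 4.41, adjusted p = 0.29 from limma, 0.024 with the block), *LEFTY1* 2.16 (-0.53 to 4.85) and *NODAL* 0.98 (-0.74 to 2.71), while *INHBA*, *GDF3* and *FOXH1* were at 0.61, 0.41 and 0.23. The block moved the count of called members from 1 to 2, where 0.718% of all genes rose. Without heterozygous library 3, where *NODAL* and *LEFTY1* were lowest, 3 members were called, *TDGF1*, *LEFTY1* with a log2 fold change of 3.99 (adjusted p = 0.021 from limma) and *NODAL* with 2.18 (adjusted p = 0.033 from limma). That fit also called more genes in all, with 151 of 20570 higher against 37 of 20608 in the main fit. *TDGF1* and *LEFTY2* had no overlap with wild-type libraries, 2 of 7 members against 3.17% of all genes tested.

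**Figure D2:**
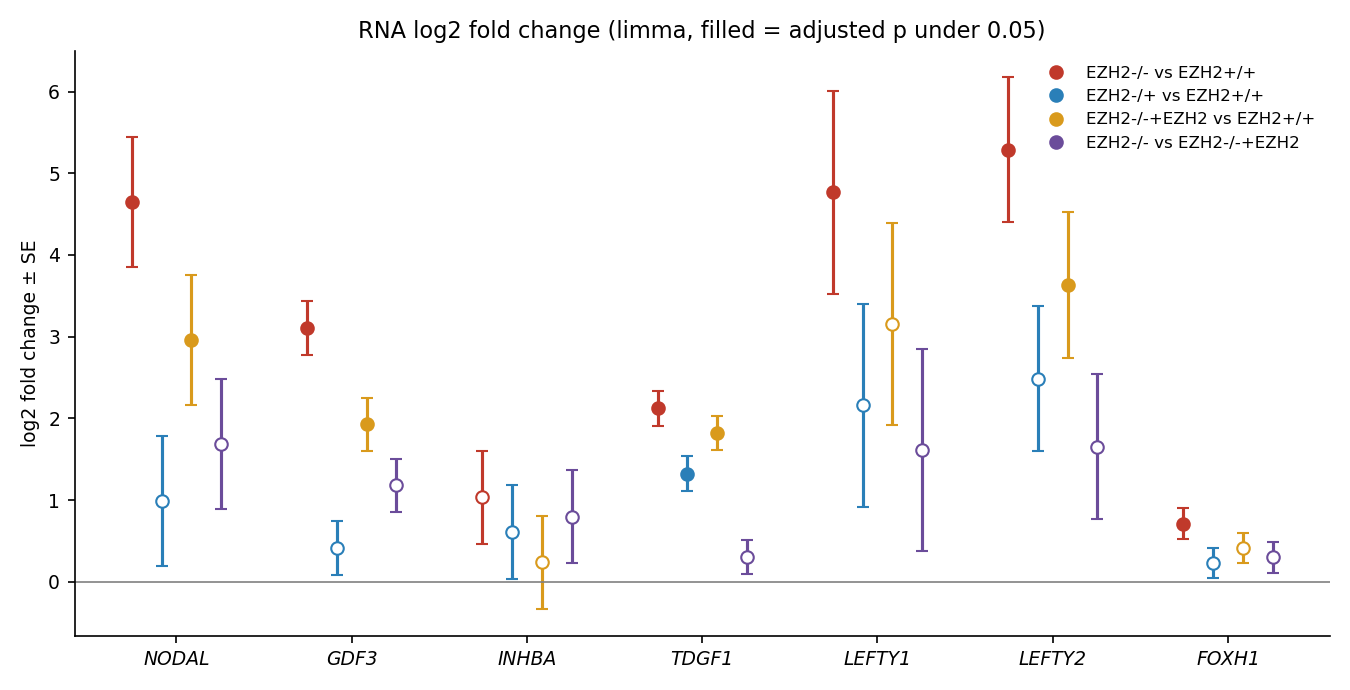
Log2 fold change of each member (y axis) with its SE, in 4 comparisons marked by color, filled where the adjusted p from limma was under 0.05. The 28 estimates are all above 0, and those of null against wild-type ESCs are the highest for each gene.

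Among 32 other genes of the pathway, 9 rose and 7 fell in null relative to wild-type ESCs, with a median log2 change of 0.26, where 12.6% of all genes tested rose and 18.8% fell. With the replicate block 15 rose and 10 fell, where 17.3% of all genes rose and 28.0% fell. Of 9 inhibitor and feedback genes 4 rose and 1 fell, and with the block 5 rose and 1 fell. *CER1*, a secreted Nodal inhibitor, had a log2 fold change of 3.96 (adjusted p = 0.038 from limma), *SMAD7*, which blocks the receptors from inside the cell, 2.53 (adjusted p = 0.00083 from limma), and *PMEPA1*, which limits SMAD activation, 2.24 (adjusted p = 0.0012 from limma). *FST*, which encodes the Activin-binding follistatin, fell by 2.23 on the log2 scale (adjusted p = 0.00012 from limma).

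Of 7 mesendoderm target genes 3 rose in null relative to wild-type ESCs and 0 fell, where 12.6% of all genes tested rose, and with the replicate block 7 rose, where 17.3% did. Those that rose include *T* with a log2 fold change of 2.58 (adjusted p = 0.021 from limma) and *SOX17* with 1.99 (adjusted p = 0.017 from limma). All 7 estimates were above 0. *T* and *SOX17* also stand among the mesoderm and endoderm markers described with the other cell types. Of 2 convertase genes 1 rose, *FURIN*, whose product cleaves ligand precursors, by 1.57 on the log2 scale (adjusted p = 0.00071 from limma).

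Of 6 receptor and co-receptor genes 4 fell and 0 rose in null relative to wild-type ESCs, where 18.8% of all genes tested fell, and with the block 4 fell and 1 rose, where 28.0% of all genes fell and 17.3% rose. Among those called, *ACVR2B* fell by 0.92, *ACVR2A* by 0.87 and *TGFBR1* by 0.60 on the log2 scale (adjusted p = 0.0023, 0.0061 and 0.031 from limma). Of 4 SMAD and nuclear partner genes 1 fell, *SMAD4* by 0.45 (adjusted p = 0.032 from limma), and with the block 3 fell. Of 4 other ligand genes 1 rose, *TGFB1* by 0.85, and 1 fell, *GDF1* by 0.93 (adjusted p = 0.011 and 0.0023 from limma), and with the block 1 rose and 2 fell.

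The other comparisons called fewer of the 32 genes. Only *SOX17* was called in null relative to restored ESCs, with a log2 fold change of 2.56 (adjusted p = 0.027 from limma), where 2.63% of all genes rose. With the block 6 rose and 2 fell, against 6.19% and 3.21% of all genes. In heterozygous relative to wild-type ESCs only *FST* was called, with -2.05 (adjusted p = 0.0034 from limma), where 0.966% of all genes fell. With the block 1 rose and 3 fell, against 0.718% and 2.16% of all genes. In restored relative to wild-type ESCs 2 rose and 4 fell, where 3.4% of all genes rose and 6.9% fell. With the block 5 rose and 8 fell, against 6.26% and 16.1% of all genes. The 6 called without the block were *SMAD7* with 1.46 and *FURIN* with 1.02, against *FST* with -1.90, *INHBB*, which encodes the subunit of Activin B, with -1.89, *ACVR2A* with -0.86 and *TGFBR1* with -0.69 (adjusted p from 0.0013 to 0.042 in limma). *FST* ran from 292 to 340 RPM in wild-type and from 48.4 to 113 RPM over all 9 libraries of edited cells.

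**Figure D3:**
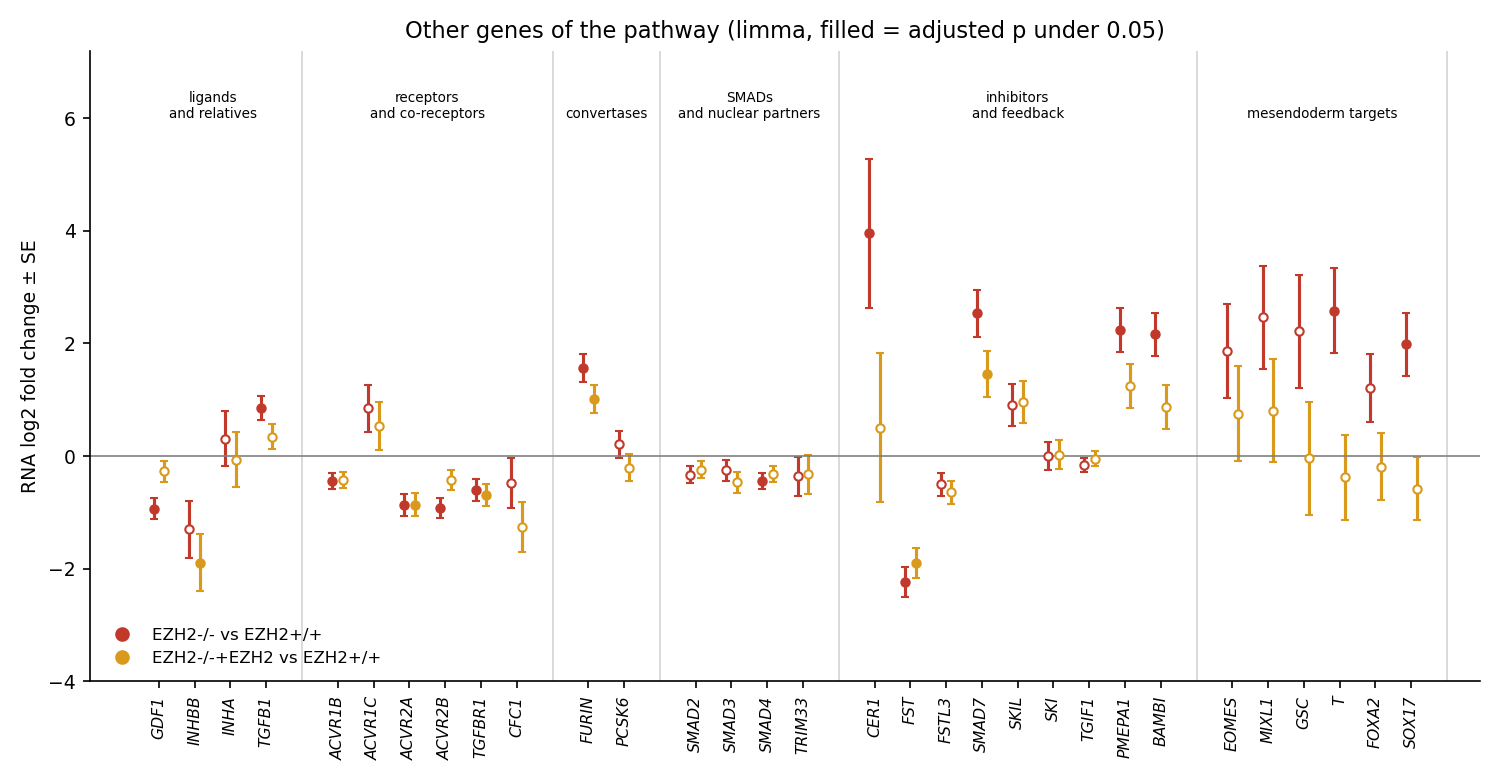
Log2 fold change with SE (y axis) of other genes of the pathway, by role, in null and restored relative to wild-type ESCs, filled where the adjusted p from limma was under 0.05. Inhibitor and mesendoderm genes reach 3.96 and 2.58 in null ESCs, while the called receptor genes lie below 0.

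Markers of other cell types moved in null relative to wild-type ESCs, and their part in the members' values was not tested. Over all genes tested 12.6% rose and 18.8% fell in null relative to wild-type ESCs, and the marker counts given next stand beside these shares. Of 5 endoderm markers 3 rose in null relative to wild-type ESCs, with a summed level of 76.7 to 156 RPM against 19.4 to 32.6. Of 6 mesoderm markers 3 rose, with 179 to 245 RPM against 50.7 to 82.0. In heterozygous libraries 1 to 3, where *LEFTY1* was at 69.9, 466 and 3.90 RPM, the endoderm sum was 32.6, 94.8 and 11.5 RPM. In restored libraries 1 to 3, where *LEFTY1* was at 142, 225 and 32.3 RPM, the endoderm sum was 31.8, 15.4 and 17.5 RPM. The mesoderm sum in restored ESCs was 77.1 to 178 RPM. Relative to wild-type ESCs 0 of 5 endoderm and 1 of 6 mesoderm markers rose in restored ESCs, where 3.4% of all genes tested rose. Of 4 ectoderm markers 2 fell (0.932 to 2.05 against 6.93 to 18.4 RPM), and *NEUROG2* was at 0.0375 RPM or less. Of 5 fibroblast markers 2 rose and 1 fell (89.7 to 340 against 212 to 303 RPM), and *DCN* was at 0.169 RPM or less. Of the 8 ESC markers 4 rose and 1, *SOX2*, fell (3292 to 3731 against 2369 to 2971 RPM).

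The genes whose RNA followed the members most closely, by Pearson correlation of log2(RPM + 0.1) across the 12 libraries among 15493 genes, are given as a description, since libraries of a genotype share it. For *NODAL* they were RP11-104F15.9, which overlaps it (r = 0.99), *ETV4* (r = 0.98) and *SMAD7* (r = 0.98). For *LEFTY1* they were the overlapping RP4-559A3.7 (r = 0.98), *KIAA1161* (r = 0.98) and *KIAA0020* (r = 0.98), and for *LEFTY2* the overlapping RP4-559A3.6 (r = 0.997), *AIRE* (r = 0.96) and *CAV1* (r = 0.95). *GDF3* was followed by RP11-181K12.2 (r = 0.98), *FAM127A* (r = 0.97) and *SLC25A5-AS1* (r = 0.97). *TDGF1* was followed by *ETS1* (r = 0.97), *BRINP1* (r = 0.96) and *DNAJA2* (r = 0.96), *FOXH1* by *ARFRP1* (r = 0.95), *MAGED4* (r = 0.94) and RP11-426A6.5 (r = 0.93), and *INHBA*, on few reads, by *DSC2* (r = 0.96), *ZBTB2* (r = 0.96) and *RAPGEF1* (r = 0.95).

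H3K27me3 is the mark that PRC2 places at repressed promoters, H3K4me3 marks promoters, and H3K27ac marks active ones on the same lysine as H3K27me3. For each gene name the window with the most H3K27me3 in wild-type ESCs was taken, such as chr10:70439167-70444167 for *NODAL*, chr3:46575265-46580265 for *TDGF1* and chr1:225886646-225891646 for *LEFTY1*. *NODAL* had 20.7 RPM there in wild-type, 10.9 in heterozygous, 1.04 in null and 4.09 in restored ESCs. *TDGF1* followed with 11.2, 2.07, 1.86 and 1.26, *INHBA* with 6.30, 4.94, 0.68 and 5.03, and *LEFTY1* with 6.20, 2.25, 2.13 and 1.20 RPM in the same order of genotypes. *LEFTY2* had 4.84, 0.80, 0.87 and 1.93, *FOXH1* 4.02, 3.57, 0.72 and 2.03, and *GDF3* 1.28, 1.53, 0.61 and 0.99 RPM. Input in these windows was between 0.715 and 1.84 RPM, and *GDF3* lay below its input in every genotype. The window centred on the *INHBA* start shown above was not the one chosen, and it read 4.80, 3.18, 0.78 and 3.43 RPM.

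The study's rule for H3K27me3 promoters (input under 0.1 and H3K27me3 over 0.1 on a log2 scale per kb) was rebuilt on the averaged values. It passed 6236 of 35683 gene names, a wider set than the study's own. Shares of names with an H3K27me3 promoter refer to this wider set. By this rule 4 members had such a window, *NODAL*, *LEFTY1*, *INHBA* and *TDGF1*, the last with 5 windows. *LEFTY2*, *FOXH1* and *GDF3* had none. EZH2 in wild-type ESCs was highest at *NODAL*, with 123 reads or 1.32 RPM, above 94.2% of all gene names, and at *FOXH1*, with 97 reads. *LEFTY1* had 72, *TDGF1* 39, *LEFTY2* 38, *INHBA* 23 and *GDF3* 15 reads, against a median of 0.290 RPM over all gene names, and at *INHBA* (0.247 RPM) and *GDF3* (0.161 RPM) the level was below that median. Over names with an H3K27me3 promoter the median was 0.837 RPM. Only *NODAL* and *FOXH1* (1.04 RPM) lay above it, and *LEFTY1* (0.773 RPM) and *TDGF1* (0.419 RPM) lay below.

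**Figure D4:**
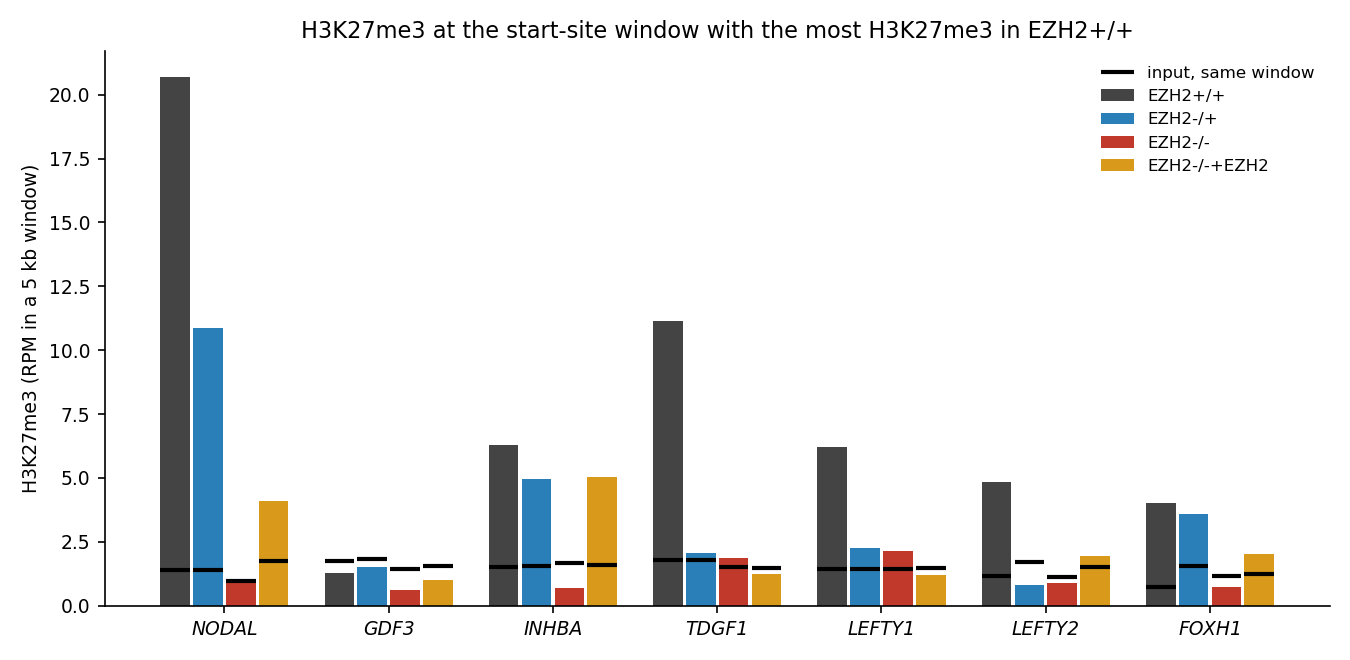
H3K27me3 in RPM (bars, y axis from 0) at the chosen 5 kb window of each gene in 4 genotypes, with input in the same window as a black line. *TDGF1*, *LEFTY1* and *LEFTY2* drop from 11.2, 6.20 and 4.84 RPM in wild-type to 2.25 RPM or less in heterozygous ESCs, while *INHBA* and *FOXH1* stay at 4.94 and 3.57 RPM.

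In null relative to wild-type ESCs, H3K27me3 was lower by at least 1 (log2) at 6 of 7 members, against 48.0% of all gene names and 98.3% of those with an H3K27me3 promoter. The difference was -4.18 at *NODAL* (95% counting interval -4.73 to -3.64), -3.04 at *INHBA*, -2.52 at *TDGF1*, -2.35 at *LEFTY2*, -2.32 at *FOXH1*, -1.50 at *LEFTY1* and -0.97 at *GDF3*. With 1 averaged value per genotype there is no test between genotypes, and the intervals cover counting error only.

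In heterozygous relative to wild-type ESCs the mark was lower by 1 or more at 3 of 7 members, against 4.49% of all gene names and 1.54% of those with an H3K27me3 promoter. The differences were -2.46 at *LEFTY2* (counting interval -3.17 to -1.74), -2.38 at *TDGF1* (-2.82 to -1.93) and -1.42 at *LEFTY1* (-1.89 to -0.95), with -0.92 at *NODAL* (-1.15 to -0.69). *INHBA* at -0.34 and *FOXH1* at -0.17 had intervals that include 0. The median difference over names with an H3K27me3 promoter was 0.06.

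In restored relative to wild-type ESCs the mark was lower by 1 or more at 4 of 7 members, against 5.6% of all gene names and 6.96% of those with an H3K27me3 promoter. The differences were -3.05 at *TDGF1* (-3.55 to -2.55), -2.31 at *NODAL* (-2.61 to -2.02), -2.27 at *LEFTY1* (-2.81 to -1.73) and -1.28 at *LEFTY2* (-1.76 to -0.81). *FOXH1* was at -0.96, *GDF3* at -0.34 and *INHBA* at -0.32 (-0.67 to 0.03). In null relative to restored ESCs 4 of 7 members were lower by 1 or more, against 37.3% of all gene names and 97.3% of those with an H3K27me3 promoter, *INHBA* with -2.72, *NODAL* with -1.87, *FOXH1* with -1.37 and *LEFTY2* with -1.07. *TDGF1* and *LEFTY1* had differences of 0.53 and 0.77 at the chosen windows. At windows of the same genes that did not meet the H3K27me3 rule the order was the reverse. The other *LEFTY1* window had 0.766 RPM in null and 3.00 RPM in restored ESCs, and a *TDGF1* window further downstream (chr3:46609935-46614935) had 0.812 and 2.04 RPM. Input there was 2.03 and 1.85 RPM in restored ESCs. At the 5 *TDGF1* windows that met the rule, null was above restored. Taking the mean over all windows of a name, or the window with the most H3K4me3, left the counts of 3 and 4 as they were, against 2.74% and 3.53%, or 3.52% and 4.54%, of all gene names.

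H3K27ac was higher by at least 1 (log2) in null relative to wild-type ESCs at 4 of 7 members, against 9.18% of all gene names and 23.2% of those with an H3K27me3 promoter. *FOXH1* went from 2.16 to 6.24 RPM, *LEFTY1* from 2.47 to 6.90, *LEFTY2* from 2.31 to 6.44 and *TDGF1* from 2.67 to 7.43 RPM, differences of 1.49, 1.45, 1.44 and 1.44. *NODAL* went from 2.21 to 4.30 RPM (0.93), *GDF3* from 2.65 to 3.64 RPM (0.45) and *INHBA* from 1.28 to 1.66 RPM (0.35), the latter 2 with counting intervals that include 0. In restored ESCs the same 4 names were higher by 1 or more, against 2.47% of all gene names and 1.54% of those with an H3K27me3 promoter, with 8.18 RPM at *LEFTY1*, 7.11 at *TDGF1*, 5.02 at *LEFTY2* and 4.58 at *FOXH1*. Between null and restored ESCs 0 of 7 members passed 1, against 3.85% of all gene names and 18.5% of those with an H3K27me3 promoter. In heterozygous ESCs 0 of 7 members passed 1 either, against 1.07% of all gene names and 2.85% of those with an H3K27me3 promoter, and *TDGF1*, *FOXH1*, *LEFTY2* and *LEFTY1* had differences of 0.92, 0.91, 0.89 and 0.83 whose intervals lie above 0. Input at *FOXH1* moved too, from 0.715 RPM in wild-type to 1.57 in heterozygous, 1.15 in null and 1.23 in restored ESCs. In restored relative to wild-type ESCs its input difference was 0.71, beside 1.05 for H3K27ac.

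**Figure D5:**
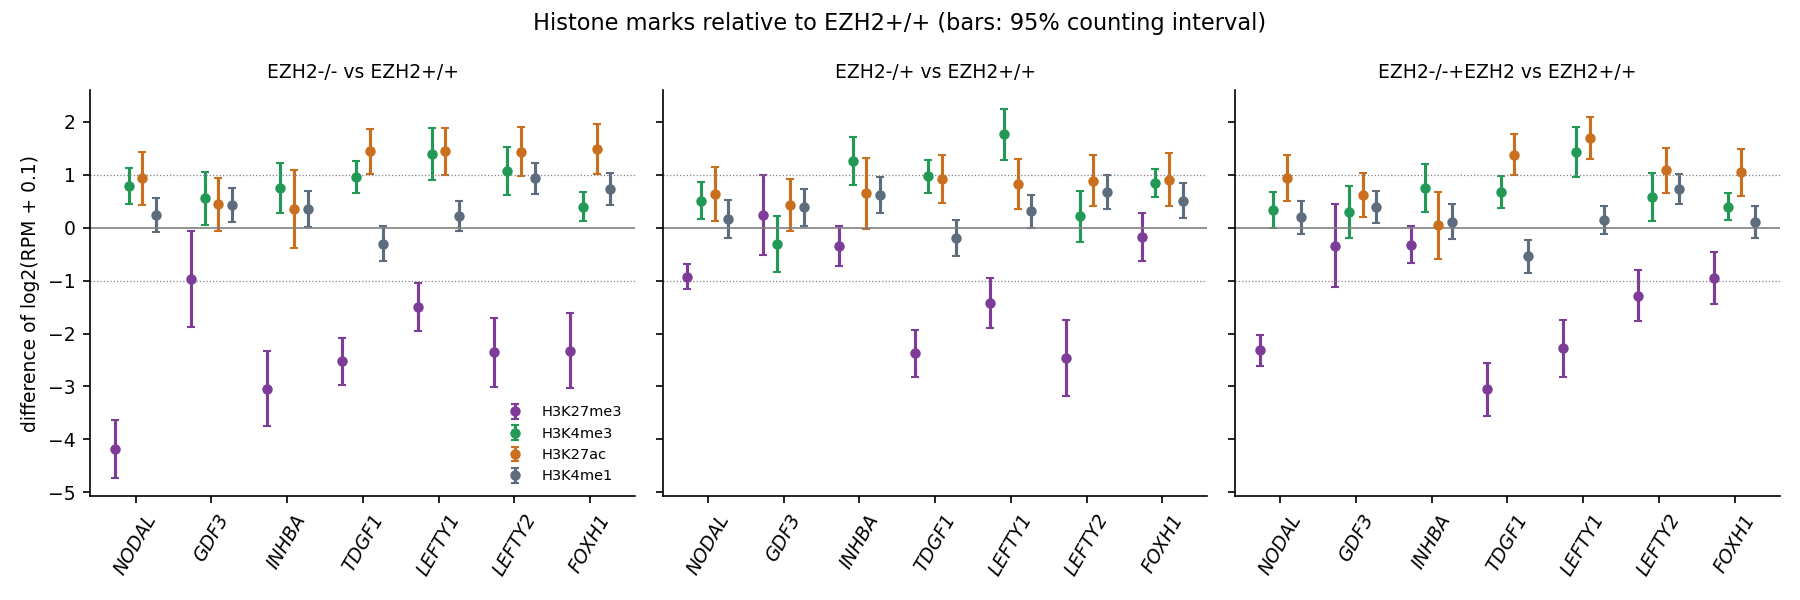
Difference of log2(RPM + 0.1) from wild-type ESCs (y axis) for 4 histone marks at each gene, 1 panel per genotype, with 95% counting intervals and dotted lines at 1 and -1. H3K27me3 lies below -1 at *TDGF1*, *LEFTY1* and *LEFTY2* in all 3 panels, and the H3K27ac estimates lie above 0 at every gene. Their intervals include 0 at *INHBA* in every panel and at *GDF3* in null and heterozygous ESCs. The median H3K27ac difference of all gene names is 0.31 in null, 0.12 in heterozygous and 0.11 in restored ESCs.

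H3K4me3 was higher by 1 or more in null relative to wild-type ESCs at *LEFTY1* (5.48 to 14.6 RPM) and *LEFTY2* (6.36 to 13.5 RPM). That is 2 of 7 members against 2.47% of all gene names and 2.34% of those with an H3K27me3 promoter. In heterozygous ESCs *LEFTY1* (18.9 RPM) and *INHBA* (6.33 to 15.4 RPM) passed 1, against 5.19% of all gene names. Of names with an H3K27me3 promoter 11.4% passed 1 there, and their median difference was 0.53. In restored ESCs *LEFTY1* alone passed 1 (15.0 RPM), against 1.71% of all gene names and 2.47% of those with an H3K27me3 promoter. The wild-type H3K4me3 libraries were shallow, with an average of 3426083 reads against 10327471 to 17385575 in the other genotypes. The wild-type *LEFTY1* value rests on an average of 18.8 reads per library. H3K4me1 passed 1 at 0 of 7 members in each of these 3 comparisons, against 2.34%, 0.362% and 1.19% of all gene names, and its differences in null ESCs ran from -0.30 at *TDGF1* to 0.93 at *LEFTY2*.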

How the data were processed

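RNA was read on genes (100 bp single-end, strand not kept) and chromatin in 5 kb start-site windows. Per the methods, reads were trimmed (Trim Galore 0.4.0), aligned to GRCh38 with TopHat2 2.0.12 (RNA) or Bowtie2 2.2.5 (ChIP; native MNase chromatin for histone marks, crosslinked for EZH2) and counted in SeqMonk, and the authors deposited log2 values of RPM (reads scaled to 1000000 per library), 1 column per RNA library and 1 averaged column per genotype and mark. The ChIP labels list 2 libraries for each average and 1 for EZH2, whereas the study's text speaks of 3 replicates. The counting intervals assume the labels' numbers and would be narrower with 3 libraries. All columns were used. The study tested raw counts, which were not used here. RPM below 1000 reads all came out as whole reads (tolerance 0.02). A value of no read stands in the table at 0.9 reads and was set to 0.

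Every gene averaging 0.1 RPM or more (20608 of 35805) was fitted with limma 3.58.1 (R 4.3.3; lmFit, eBayes with trend) on log2(RPM + 0.1) over all 12 libraries, with genotype as the only term, and p-values were adjusted by Benjamini-Hochberg over all genes tested. Same-numbered libraries tended to deviate together (12 pairs, r from 0.107 to 0.56, against -0.449 to 0.210 over 24 pairs of unlike number). The ranges overlap and the labels name no pairing, so it is not certain that the replicate numbers pair the libraries. The fit was repeated with the number as a block. Chromatin values were compared without a test as differences of log2(RPM + 0.1). Read counts behind them came from the depth each column's values imply, and 95% intervals cover counting error only. Exon lengths came from GENCODE release 44 and promoters from RefSeq. Other pathway genes were named where called, at most 3 per list and comparison by size of change, and 1 of these is not reported here. Alternatives were another pseudocount, filter, scaling, set of libraries or chromatin window, voom on recovered reads, the block, and leaving out libraries. The fit was tested on simulated data. Members and lists were chosen with earlier results of these data known.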

Additional observations from a re-analysis of the deposited data

How the results depend on the processing

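Of the 11 called changes of members, 143 of 157 alternative values stayed past the threshold in limma, and of the changes not called 16 of 238 alternative values passed it. Only *INHBA* in restored relative to wild-type ESCs changed sign, to -0.037 without restored library 1, with a range of -0.037 to 0.64 over left-out libraries. In null relative to wild-type ESCs 6 members were called whichever library was left out. The count of called members in null relative to restored ESCs was 1 with the replicate block and 1 in the fit of 6 libraries, with a range of 0 to 1 over left-out libraries. In heterozygous relative to wild-type ESCs it was 0 with no filter on low values, 2 with the block, 0 in the fit of 6 libraries and 3 without all libraries numbered 3, with a range of 0 to 3. Of all genes, 37 rose there in the main fit, against 2, 148, 2 and 356 in these settings in the same order. In restored relative to wild-type ESCs it was 2 with no filter, with a range of 2 to 5. Of all genes, 463 rose there with no filter and 701 in the main fit. Of the 32 other pathway genes, those called in null relative to restored ESCs numbered 2 with a pseudocount of 1 RPM, 0 with no filter, 2 with median-ratio rescaling, 8 with the block, 3 in the fit of 6 libraries and 0 with voom, ranging from 0 to 2 over left-out libraries. Of all genes, 542 rose there in the main fit, against 677, 343, 529, 1276, 570 and 238 in these settings in the same order. The block called 25 in null relative to wild-type ESCs, with a range of 9 to 15. In heterozygous relative to wild-type ESCs 0 were called with no filter, 4 with the block and 6 without libraries numbered 3, with a range of 1 to 4. In restored relative to wild-type ESCs 2 were called with no filter and 13 with the block, with a range of 1 to 7. The cause of these shifts was not tested. The block changed no call of a member other than those given with it in the report. Leaving out every library numbered 3 gave calls for *INHBA* (null) and *FOXH1* (restored, both relative to wild-type) that rest on 2 libraries per genotype. Median-ratio rescaling moved the median log2 change of all genes from -0.13 to -0.01 in null and from -0.15 to -0.01 in restored relative to wild-type ESCs. H3K27me3 was lower by at least 1 in null ESCs at 6 members under each window and pseudocount and at 5 once centred on the median of all gene names. Depth limits *INHBA*, at 0 to 20 reads per library, and the wild-type H3K4me3 values.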
